A study of Mus musculus with 15 samples.

Results

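Bulk RNA sequencing of punches of the rostral ventrolateral medulla (RVLM) was compared between mice kept on deoxycorticosterone acetate (DOCA) and salt and mice at baseline, all given a control virus. Members of the comparison were the 4 libraries labelled DOCA-WT and the 4 labelled Baseline-WT, 8 of the 15 libraries of the series, described over every gene of the count table and over its biotypes. Both groups carried floxed *Atp6ap2* (the gene of the prorenin receptor, PRR) and received AAV-GFP, an adeno-associated virus that expresses green fluorescent protein from the CMV promoter and leaves the floxed allele intact, so WT stands here for an unrecombined floxed mouse. Baseline-WT punches were taken 3 weeks after the virus. DOCA-WT mice had at least 3 weeks with the virus, then a 50 mg DOCA pellet under the skin with 0.15 M NaCl as drinking water, and their punches were taken on day 13. The labels call all mice female, yet write the Baseline-WT genotype as PRRf/y and the DOCA-WT genotype as PRRf/f. The study's own description divides the DOCA-salt libraries between the viruses otherwise than the labels do, with fewer on the control virus than on the Cre virus, so a library labelled DOCA-WT may come from a Cre-virus mouse. The labels were followed here, and n = 4 for DOCA-WT rests on them. In the counts, 1 of 4 libraries in each group, Baseline-WT 4 and DOCA-WT 3, showed the male pattern of X- and Y-linked genes. The groups were separate cohorts collected at different times after the virus. Treatment, cohort and time after the virus cannot be told apart in this comparison.

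The RVLM is a loosely bounded region of the medullary reticular formation that drives sympathetic outflow to the heart and blood vessels. It holds the C1 neurons, which make catecholamines, among glutamatergic, GABAergic and peptide-expressing neurons. Cholinergic motor neurons of the nucleus ambiguus and the serotonergic neurons of the raphe and parapyramidal groups lie close by, and a punch may take in some of them. DOCA is a mineralocorticoid that, together with salt, raises blood pressure through salt retention and a neurogenic component. In bulk tissue, fewer cells of a type and less RNA per cell cannot be told apart, and the same holds for more.

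Depth was 19053970 to 22356622 counts in Baseline-WT libraries and 25418779 to 30336765 in DOCA-WT libraries, which all lay above the former. Genes with at least 1 count numbered 26853 to 30368 at baseline and 33353 to 37546 on DOCA-salt. *Atp6ap2* itself was at 114, 123.2, 117 and 139 CPM (counts scaled to a fixed library size over the genes tested, with TMM factors) in Baseline-WT and at 142, 134, 154 and 144 CPM in DOCA-WT, a log2 change of 0.21 ± 0.13 (SE) that did not pass edgeR's quasi-likelihood test (Benjamini-Hochberg adjusted p = 0.306). Every CPM series below is given in the order of replicates 1 to 4, Baseline-WT first.

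Of 14852 protein-coding genes tested, 218 were higher and 105 were lower on DOCA-salt by 2-fold or more with an adjusted p no larger than 0.05, which is 1.47% and 0.707% of the genes tested. At the adjusted p alone, which is the measure used for members of gene lists, 814 genes rose (5.48%) and 909 fell (6.12%). The median log2 change of all genes was -0.0009. Groups did not overlap in 1318 genes that were higher (8.87%) and in 1447 that were lower (9.74%). The balance of higher and lower calls depended on the scale. When each library was scaled by its total over all biotypes, 1807 genes were higher and 42 lower, since the median log2 change of all protein-coding genes then moved to 0.58. The changes below are relative to the bulk of protein-coding genes. Leaving out Baseline-WT 1 cut the higher calls to 116, leaving out Baseline-WT 2 cut them to 144, and leaving out DOCA-WT 3 cut them to 128. The lower calls became 67 without DOCA-WT 3 and 164 without DOCA-WT 1. With both male-pattern libraries left out, 121 genes were higher and 59 lower, and of the genes named below *Acta2*, *Agtr1a*, *Ano2*, *Cbln1*, *Dbh*, *Gal*, *Gfap*, *Hif3a*, *Hoxb2*, *Hoxb3*, *Hoxd3*, *Htr5b*, *Ifit1*, *Mbnl1*, *mt-Co1*, *Nr4a3*, *Olig1*, *P2ry12*, *Pnmt*, *Rps20*, *Scn1a*, *Stat2* and *Trhr* no longer passed (adjusted p from 0.0505 to 0.246). Of the gene lists described below, cytosolic ribosomal proteins then fell in 2 instead of 29, translation factors in 3 instead of 11 and mitochondrially encoded mRNAs in 7 instead of 12. The genes that rose became 0 instead of 5 for Hox genes, 2 instead of 4 for C1 and noradrenergic neurons, 3 instead of 8 for neuropeptide precursors, 4 instead of 9 for synaptic vesicle release, 4 instead of 8 for imprinted genes and 3 instead of 6 for neuronal RNA-binding proteins.

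Genes of serotonergic neurons rose together. Of 12 genes on the list of serotonergic raphe neurons, 10 rose and 0 fell, and their median log2 change was 2.05, beside 5.48% of all genes that rose. *Tph2*, the rate-limiting enzyme of serotonin synthesis in neurons, was at 1.40, 1.96, 3.00 and 4.30 CPM in Baseline-WT and at 91.2, 63.1, 97.8 and 170 CPM in DOCA-WT. The groups were far apart, and the log2 change was 5.32 ± 0.64 (SE, adjusted p = 0.000179). *Slc6a4*, the serotonin transporter, went from 0, 0.163, 0.749 and 2.27 CPM to 44.0, 22.9, 41.0 and 64.9 CPM (log2 change 5.79 ± 0.94, adjusted p = 0.00192). *Ddc*, which makes serotonin and dopamine from their amino acid precursors, was at 7.12 to 8.25 CPM in all Baseline-WT libraries and at 42.3, 29.0, 51.7 and 64.3 CPM on DOCA-salt (log2 change 2.57 ± 0.30, adjusted p = 0.000157). The vesicular monoamine transporter *Slc18a2* (4.28 ± 0.81), the cation transporter *Slc22a3* (4.28 ± 0.66) and *Fev*, the transcription factor that defines serotonergic neurons (3.77 ± 0.68), rose as well, each with separate groups. *Htr1a*, a serotonin receptor also found on serotonergic cells, was at 7.97 to 14.5 CPM at baseline and at 19.4 to 30.3 CPM on DOCA-salt (log2 change 1.14 ± 0.21). Summed over the list, the level was 83.7 to 94.7 CPM in Baseline-WT and 298 to 512 CPM in DOCA-WT. The part of the position of the punch in these changes was not tested.

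Markers of cholinergic motor neurons, which lie near the RVLM, did not pass the test. All 7 tested had a negative log2 change, with a median of -1.21, and 0 passed with edgeR, while 4 fell with limma voom. *Slc5a7*, the choline transporter, was at 758, 764, 695 and 666 CPM in Baseline-WT and at 468, 66.9, 26.9 and 342 CPM in DOCA-WT (adjusted p = 0.205). *Chat*, the enzyme that makes acetylcholine, was at 204, 203, 203 and 103.6 CPM in Baseline-WT and at 174, 33.5, 12.3 and 120 CPM in DOCA-WT. DOCA-WT 2 and 3 were thus the lowest in both genes. DOCA-WT 1 and 4 were within the baseline range in *Chat* but below every Baseline-WT library in *Slc5a7*. *Slc5a7* was the 1 gene of the 7 whose groups did not overlap, beside 9.74% of all genes that were lower in this way. The summed level of the list was 1366 to 2117 CPM at baseline and 288 to 1597 CPM on DOCA-salt. Serotonergic genes were high in all 4 DOCA-WT libraries, whichever their motor neuron level. *Tph2*, for example, was at 91.2 and 170 CPM in DOCA-WT 1 and 4 and at 63.1 and 97.8 CPM in DOCA-WT 2 and 3.

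Position markers of the hindbrain also moved. Hox genes, which mark levels along the body axis, had a positive log2 change in all 19 tested of the 39 listed, with a median of 1.85, and 5 of them rose. *Hoxb3* was at 5.24, 8.55, 10.04 and 9.08 CPM and then at 12.9, 25.9, 27.7 and 14.0 CPM (log2 change 1.29 ± 0.40, adjusted p = 0.0453), and *Hoxd3* and *Hoxb2* also rose (1.52 ± 0.47 and 0.81 ± 0.23). When a term for sex was fitted 3 Hox genes rose, and *Hoxb3* and *Hoxd3* no longer passed (adjusted p = 0.0531 and 0.0542). *Hoxc6* was at 0, 0, 0 and 0.162 CPM in Baseline-WT and at 0.164, 0.417, 1.65 and 0.349 CPM in DOCA-WT. The Hox calls rested on single libraries, since 0 remained past the threshold without Baseline-WT 1, Baseline-WT 3, DOCA-WT 2 or DOCA-WT 3, 1 without Baseline-WT 2, 2 without Baseline-WT 4, and 8 without DOCA-WT 1. DOCA-WT 3 also stood above the other DOCA-WT libraries in *Htr5b* (55.3 CPM against 0.246, 0.501 and 2.06), in the channel gene *Ano2* (44.2 CPM against 0.533, 0.626 and 2.48), in the homeobox gene *Hmx3* (4.63 CPM against 0.410, 0.709 and 0.419) and in *Zic1* (43.0 CPM against 5.29, 13.5 and 6.98). *Htr5b*, a serotonin receptor, had adjusted p = 0.0162 with all libraries, 0.0747 without DOCA-WT 3 and 0.0504 to 0.0505 without Baseline-WT 1 or 3. *Ano2* likewise went from 0.0179 to 0.0894 without DOCA-WT 3 and to 0.0507 without Baseline-WT 2. Of 8 cerebellar neuron markers, *Cbln1* rose (log2 change 1.65 ± 0.34) and 0 fell.

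**Figure D1:**
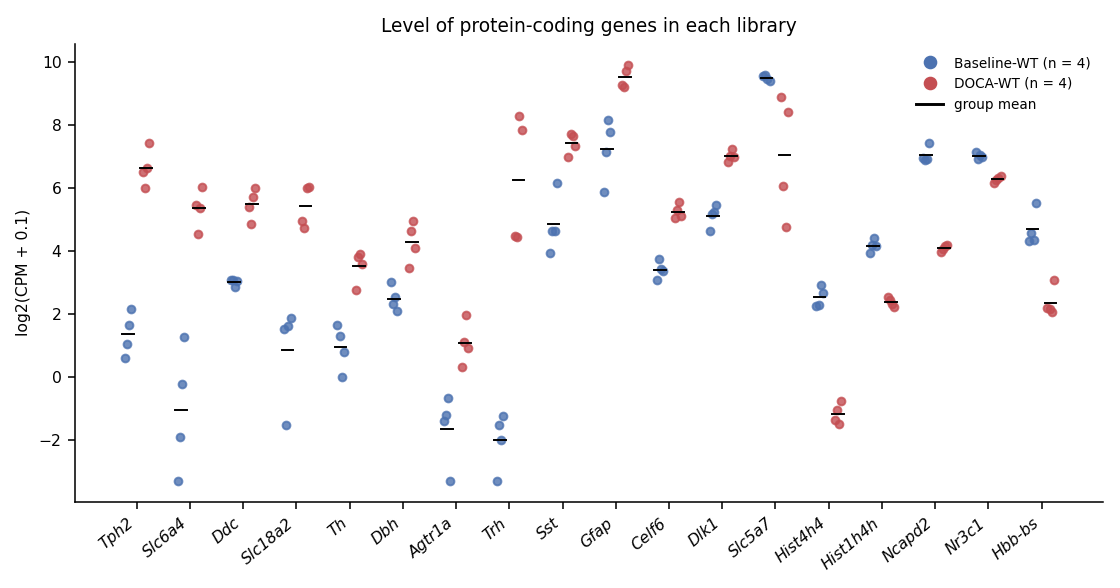
Level of 18 protein-coding genes in each library, as log2(CPM + 0.1), for Baseline-WT (blue, n = 4) and DOCA-WT (red, n = 4), with the group mean as a bar. *Tph2*, *Slc6a4* and *Trh* were higher in every DOCA-WT library than in any Baseline-WT library. *Hist4h4* and *Ncapd2*, which overlaps the short RNA gene *Scarna10*, were lower in every DOCA-WT library. *Slc5a7* was spread over the DOCA-WT libraries from 26.9 to 468 CPM.

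Genes of catecholamine synthesis rose. Of 8 genes on the list of C1 and noradrenergic neurons, 4 rose and 0 fell. *Th*, tyrosine hydroxylase, the rate-limiting enzyme, was at 3.01, 2.36, 0.899 and 1.62 CPM in Baseline-WT and at 6.69, 13.8, 14.9 and 11.8 CPM in DOCA-WT (log2 change 2.57 ± 0.41, adjusted p = 0.00152). *Dbh*, which turns dopamine into noradrenaline, was at 7.97, 4.81, 5.62 and 4.13 CPM and then at 10.9, 24.7, 30.4 and 17.04 CPM (1.88 ± 0.40, adjusted p = 0.0085). Both genes had separate groups, with DOCA-WT 1 the lowest of its group. *Gch1*, which makes the cofactor shared by tyrosine and tryptophan hydroxylases, rose with them (2.13 ± 0.34, adjusted p = 0.00166). *Pnmt*, the adrenaline-forming enzyme that defines C1 neurons, was near the detection limit, at 0, 0.244, 0 and 0 CPM in Baseline-WT and 0.410, 1.13, 0.179 and 1.26 CPM in DOCA-WT. Its adjusted p of 0.0498 lay at the threshold and was 0.101 to 0.125 without Baseline-WT 1, 3 or 4 or DOCA-WT 2 or 4. The other 4 genes of the list did not pass, among them *Slc6a2*, the noradrenaline transporter (5.80, 0.0815, 1.35 and 4.94 CPM, then 1.19, 1.92, 2.69 and 4.33 CPM). The summed level of the list was 57.5 to 80.5 CPM at baseline and 69.2 to 114 CPM on DOCA-salt, ranges that overlapped. *Ddc*, *Slc18a2* and *Gch1* are used by serotonergic and catecholaminergic neurons alike.

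The renin-angiotensin system had 11 genes tested, of which 1 rose and 1 fell. *Agtr1a*, the type 1a angiotensin II receptor, was low in all libraries, with 4, 4, 7 and 0 counts in Baseline-WT and 28, 49, 105 and 51 counts in DOCA-WT. In CPM these are 0.280, 0.326, 0.525 and 0 against 1.15, 2.04, 3.77 and 1.78, and the log2 change was 2.91 ± 0.79 (adjusted p = 0.0276). The groups did not overlap. Without Baseline-WT 1, 2 or 4 or DOCA-WT 2 or 3 the adjusted p was 0.0521 to 0.0838. *Lnpep*, the insulin-regulated aminopeptidase that binds angiotensin IV, fell from 315 to 379 CPM to 244 to 296 CPM (log2 change -0.42 ± 0.09, adjusted p = 0.0112). That direction turned with all-biotype totals as the scale, to 0.16. *Agt*, angiotensinogen, was at 60.9, 49.1, 76.8 and 94.0 CPM and then at 95.3, 67.7, 165 and 88.6 CPM (0.57 ± 0.23, adjusted p = 0.122).

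Neuropeptide precursor genes rose in 8 of 23 tested, and 0 fell. *Trh*, the precursor of thyrotropin-releasing hormone, which caudal raphe neurons hold together with serotonin, had 0, 3, 2 and 4 counts in Baseline-WT and 531, 521, 8613 and 6602 counts in DOCA-WT. It had the largest log2 change of all called genes under the naming rule, 9.67 ± 1.40 (adjusted p = 0.000824), with few counts behind its baseline level. With limma voom its adjusted p was 0.109. DOCA-WT 3 and 4 were far above DOCA-WT 1 and 2. *Sst*, somatostatin, was at 15.2, 24.5, 24.7 and 71.0 CPM and then at 125, 210, 201 and 159 CPM (2.36 ± 0.46, adjusted p = 0.00556). *Cartpt*, the precursor of the CART peptides, was at 4.12 to 9.21 CPM and then at 14.2 to 28.8 CPM (1.67 ± 0.31, adjusted p = 0.00397). *Gal*, galanin, was at 2.92 to 5.78 CPM and then at 22.1, 6.59, 17.1 and 7.40 CPM (1.55 ± 0.38, adjusted p = 0.017), and without DOCA-WT 3 its adjusted p was 0.0505. Leaving out Baseline-WT 1, 2 or 3 or DOCA-WT 2 or 3 left 4 or 5 precursors past the threshold.

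Receptors of neuropeptides passed the edgeR test about as often as all genes did. On this list 1 gene rose and 2 fell, beside 5.48% and 6.12% of all genes that rose and fell. Its median log2 change was 0.0003. Of 28 such genes, *Grpr*, the receptor of gastrin-releasing peptide, rose (1.93 ± 0.40, adjusted p = 0.00782), while the TRH receptor gene *Trhr* and the substance P receptor gene *Tacr1* fell. *Trhr* was at 34.3, 30.3, 25.6 and 26.6 CPM in Baseline-WT and at 16.9, 8.80, 4.70 and 10.5 CPM in DOCA-WT (-1.51 ± 0.41, adjusted p = 0.0272), with separate groups. The number that rose was 2 without Baseline-WT 3 or DOCA-WT 4, 4 with DESeq2, 3 with the likelihood ratio test and 5 with limma voom. The adjusted p of *Trhr* was 0.0522 to 0.0748 without Baseline-WT 1 or 2 or DOCA-WT 2, 3 or 4. *Tacr1*, which marks respiratory and cardiovascular neurons of the ventral medulla, went from 22.5 to 32.2 CPM to 11.1 to 19.9 CPM (-0.94 ± 0.18, adjusted p = 0.0047). Of 21 monoamine receptor genes, *Htr1a*, *Htr1d* and *Htr5b* rose and 0 fell. Without Baseline-WT 1 or 3 this became 1.

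Some genes of GABA synthesis and of synaptic release rose. *Gad1* and *Gad2*, the enzymes that make GABA, were at 44.5, 72.01, 70.4 and 124 CPM and at 96.3, 145, 140 and 238 CPM in Baseline-WT. In DOCA-WT they were at 213, 282, 156 and 191 CPM and at 381, 501, 316 and 341 CPM (log2 changes 1.44 ± 0.36 and 1.31 ± 0.35, adjusted p = 0.0199 and 0.0254). The groups did not overlap in either gene. They were the 2 of 8 genes of amino acid transmission that rose, and 0 passed without Baseline-WT 1, 2 or 3 or without DOCA-WT 2. The vesicular transporter *Slc32a1* of the same neurons narrowly missed the threshold (0.92 ± 0.30, adjusted p = 0.0557), and *Slc17a6*, the glutamate transporter of most medullary excitatory neurons, did not pass (0.45 ± 0.23). Of 19 genes of synaptic vesicle release 9 rose and 0 fell, or 5 without Baseline-WT 1 or 3 or DOCA-WT 2 or 3. *Syt1*, the calcium sensor of release, was at 90.3, 181, 164 and 206 CPM and then at 357, 472, 703 and 272 CPM (1.49 ± 0.33, adjusted p = 0.00966). *Vamp2*, the vesicle SNARE protein, was at 162 to 214 CPM and then at 249 to 425 CPM (0.88 ± 0.16, adjusted p = 0.00303), and *Stx1a* and *Unc13a* also rose. Of 15 dense-core vesicle genes 3 rose, including *Scg2*, a granin (180, 256, 230 and 285 CPM, then 463, 558, 607 and 508 CPM, 1.17 ± 0.20). Leaving out Baseline-WT 1, 2 or 3 or DOCA-WT 2 or 3 left 1 of these 3.

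Some of the smallest p-values belonged to RNA-binding proteins and imprinted genes of neurons. *Celf6*, a splicing regulator, was at 8.39, 13.1, 10.6 and 10.2 CPM in Baseline-WT and at 32.7, 39.0, 46.8 and 34.0 CPM in DOCA-WT (1.85 ± 0.19, adjusted p = 4.74e-05). *Celf4* was at 125 to 159 CPM and then at 268 to 362 CPM (1.15 ± 0.13, adjusted p = 0.000135), and *Celf5* rose as well (1.54 ± 0.23). Both groups were tight and well separated for these genes. Over the list of 19 neuronal RNA-binding proteins 6 rose and 2 fell. Of the 2 that fell, *Mbnl1* had a log2 change of -0.36 ± 0.08 that became positive (0.22) with all-biotype totals as the scale. *Dlk1*, a paternally expressed gene of the Delta and Notch family, was at 24.5, 35.4, 37.4 and 43.3 CPM and then at 114, 130, 151 and 125 CPM (1.88 ± 0.20, adjusted p = 7.4e-05). Of 18 imprinted genes 8 rose and 1 fell, and 5 rose without Baseline-WT 1 or 2 or DOCA-WT 2 or 3. *Grb10*, an adaptor of growth factor receptors, was at 82.3, 93.8, 89.3 and 93.6 CPM and then at 136, 147, 145 and 145 CPM (0.68 ± 0.09, adjusted p = 0.000632). *Gnas*, which encodes the stimulatory G protein, rose by 0.59 ± 0.10.

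Channels of neuronal firing changed in a minority. Of 42 sodium, calcium and HCN channel genes 9 rose and 2 fell. *Scn3b*, a sodium channel beta subunit, was at 9.23, 13.4, 13.7 and 23.7 CPM and then at 45.7, 47.9, 68.3 and 43.9 CPM (1.78 ± 0.28, adjusted p = 0.00151). *Hcn3*, a pacemaker channel, rose from 6.07 to 10.3 CPM to 14.6 to 21.1 CPM (1.23 ± 0.18), and *Cacna1b*, the N-type calcium channel, rose by 0.74 ± 0.12. *Scn1a*, the sodium channel of fast-spiking neurons, fell slightly, from 727 to 807 CPM to 489 to 616 CPM (-0.46 ± 0.09, adjusted p = 0.00643), and with all-biotype totals its change was 0.13. Of 19 immediate early genes, which neurons switch on when active, *Nr4a3* rose (1.68, 3.50, 3.90 and 2.76 CPM, then 4.02, 9.97, 8.83 and 7.44 CPM, 1.36 ± 0.33) and 0 fell.

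Both corticosteroid receptor genes fell. *Nr3c1*, the glucocorticoid receptor gene, was at 141, 121, 132 and 126 CPM in Baseline-WT and at 71.2, 76.0, 79.1 and 83.4 CPM in DOCA-WT, a log2 change of -0.75 ± 0.09 (adjusted p = 0.000135). *Nr3c2*, the mineralocorticoid receptor gene, was at 108, 103.8, 105 and 81.5 CPM and then at 70.7, 59.2, 52.5 and 61.0 CPM (-0.71 ± 0.17, adjusted p = 0.0158). The groups of both genes were separate. With all-biotype totals as the scale neither passed (adjusted p = 0.176 and 0.486), and without DOCA-WT 3 *Nr3c2* had adjusted p = 0.0531. Among steroid-responsive genes *Plin4*, a lipid droplet protein, was at 5.73, 2.77, 7.42 and 3.57 CPM and then at 61.9, 3.55, 86.4 and 50.7 CPM (3.37 ± 0.62, adjusted p = 0.00374, or 0.148 with limma voom). *Hif3a* was at 2.27 to 6.14 CPM and then at 13.6, 2.96, 16.1 and 11.6 CPM (adjusted p = 0.047), a call lost without any 1 of 7 libraries. In both genes DOCA-WT 2 stayed at the baseline level while the other 3 DOCA-WT libraries lay above it. Over the 21 genes of the list 2 rose and 2 fell. Without DOCA-WT 2 as many as 4 rose, and without any 1 of the 4 Baseline-WT libraries or of DOCA-WT 1 or 3 only 1 did. Without DOCA-WT 3, 1 fell. Of 10 genes of osmotic response and water channels 0 passed in either direction, with log2 changes from -0.28 to 0.38.

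Glial and vascular genes changed little as groups. *Gfap*, the intermediate filament of astrocytes, was at 58.2, 140, 285 and 220 CPM in Baseline-WT and at 618, 583, 834 and 962 CPM in DOCA-WT (2.09 ± 0.48, adjusted p = 0.0124). It was the 1 of 16 astrocyte genes that rose, and the summed level of that list was 7165 to 8087 CPM at baseline and 6836 to 8197 CPM on DOCA-salt. Of 17 microglial genes 0 rose, and *P2ry12*, a purinergic receptor of resting microglia, fell (-0.89 ± 0.24, adjusted p = 0.0273), a call lost without Baseline-WT 1, 3 or 4 or DOCA-WT 1, 2 or 3. Of 16 genes of NF-kappa-B, the inflammasome and NADPH oxidase 0 passed, among them *Nfkb1* (31.0 to 39.8 CPM, then 31.6 to 34.3 CPM, -0.11 ± 0.10) and *Nlrp3* (0.225 to 1.05 CPM, then 0.431 to 1.03 CPM). Of 24 interferon genes *Ifit1* and *Stat2* rose (0.99 ± 0.30 and 0.45 ± 0.13, adjusted p = 0.042 and 0.0408), and 0 or 1 passed when any 1 library was left out. Of 19 myelin genes 2 fell, *Opalin* and *Olig1* (-1.03 ± 0.19 and -0.63 ± 0.19). Only *Opalin* held without any 1 of Baseline-WT 1, 2 or 3 or DOCA-WT 2, 3 or 4. Of 16 endothelial genes 0 passed with edgeR (1 rose without DOCA-WT 1, 2 or 4 and with DESeq2, and 1 rose and 3 fell with limma voom), and of 12 pericyte and smooth muscle genes *Vtn* and *Acta2* fell (-0.56 ± 0.12 and -0.99 ± 0.26). *Acta2* did not pass without Baseline-WT 3 or DOCA-WT 3 or 4. The change of *Vtn* was 0.03 with all-biotype totals as the scale.

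Haemoglobin transcripts fell in 4 of 5 genes of red blood cells. *Hbb-bs* was at 19.5, 23.5, 20.3 and 45.5 CPM and then at 4.39, 4.34, 4.02 and 8.20 CPM (-2.37 ± 0.31, adjusted p = 0.000381), and *Hba-a2* was at 6.44 to 8.51 CPM and then at 2.55 to 2.91 CPM (-1.47 ± 0.23). The summed level of the list was 39.7 to 82.6 CPM at baseline and 13.7 to 20.7 CPM on DOCA-salt, so haemoglobin was lower in every DOCA-WT library than in any Baseline-WT library. Haemoglobin genes have near-identical copies, between which reads can be split.

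**Figure D2:**
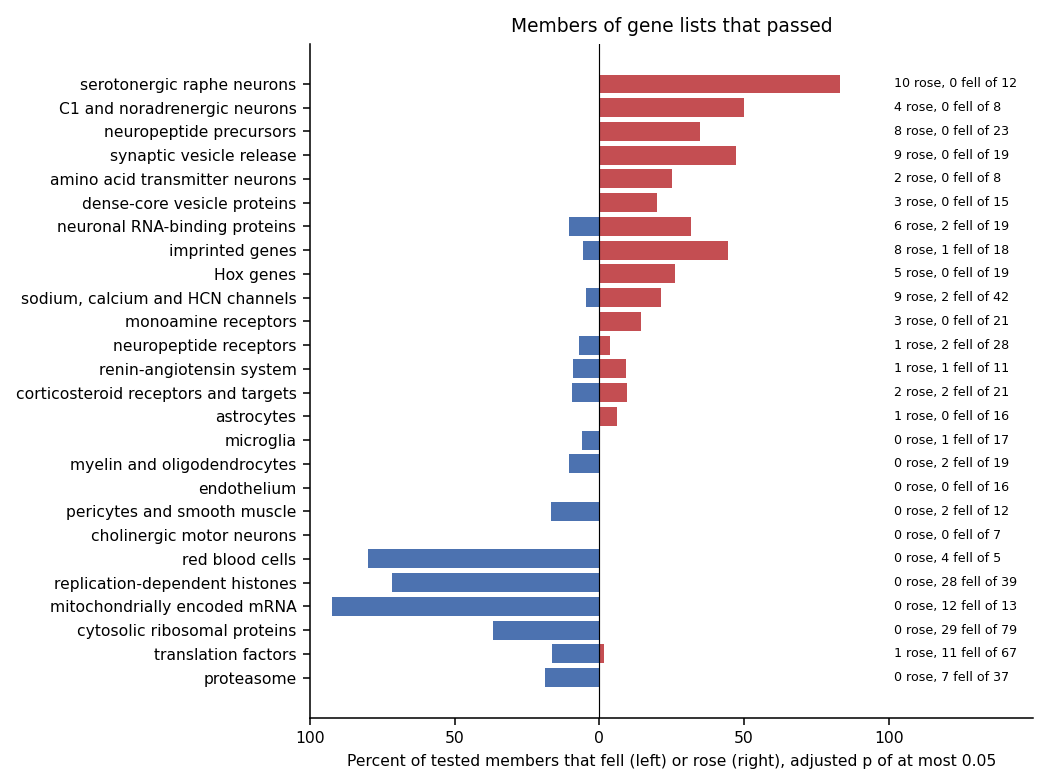
Percent of the tested members of 26 gene lists that fell (blue, left) or rose (red, right) on DOCA-salt at an adjusted p of at most 0.05, with the counts at the right. Serotonergic genes rose in 10 of 12, replication-dependent histones fell in 28 of 39 and mitochondrially encoded mRNAs fell in 12 of 13, beside 5.48% and 6.12% of all protein-coding genes that rose and fell.

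The make-up of the libraries by RNA class also differed. Protein-coding genes took 67.8%, 67.9%, 63.6% and 62.4% of all counts in Baseline-WT and 91.9%, 90.5%, 90.1% and 88.2% in DOCA-WT. Mitochondrial rRNA took 21.5%, 20.7%, 26.2% and 28.8% at baseline and 2.48%, 2.42%, 3.42% and 5.84% on DOCA-salt. Neither class overlapped between groups (exact two-sided permutation p = 0.0286, the smallest that 4 against 4 libraries can give, and 0.0321 adjusted over 18 classes). Mitochondrial tRNA was 0.570% ± 0.124 (SD, n = 4) of counts at baseline and 0.0792% on DOCA-salt. Counts in genes annotated as miRNA were 5.05% ± 1.01 (SD, n = 4) and 2.78%. Together, 6 classes of short RNA (snoRNA, scaRNA, snRNA, misc_RNA, ribozyme and rRNA genes) were 1.09% ± 0.157 (SD, n = 4) and 0.147%, with the same exact p of 0.0286 for each class. The share of lncRNA, 2.79% to 3.81% and then 2.25% to 2.97%, did not pass (exact p = 0.0571), nor did that of cytosolic ribosomal proteins, 0.564% to 0.748% and then 0.674% to 0.763% (exact p = 0.0857). The total RNA kit used here reads RNA without poly(A) tails, so these classes could be counted. Treatment and cohort cannot be told apart for these shares.

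**Figure D3:**
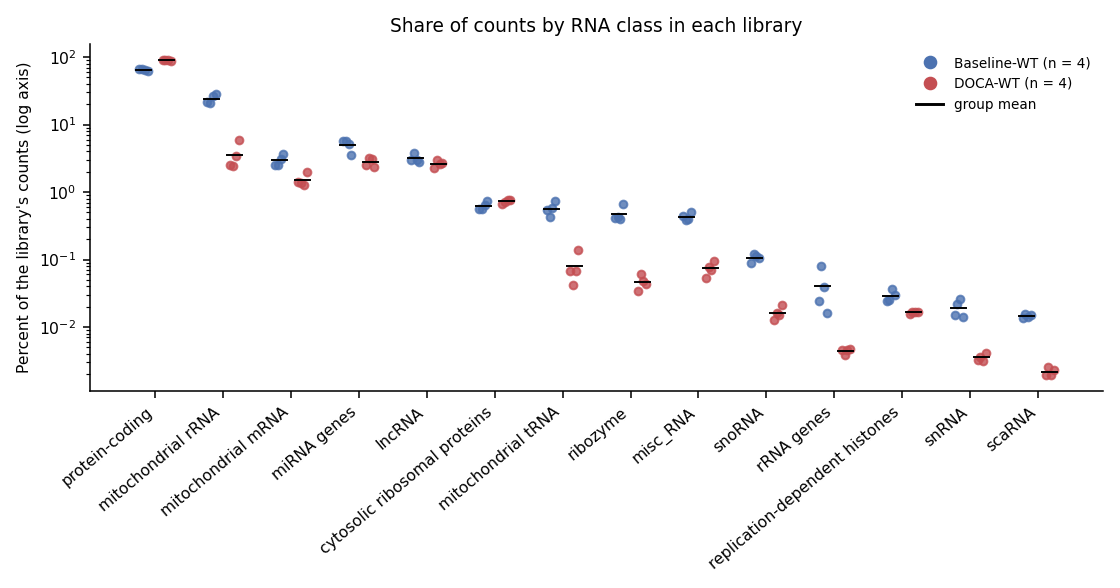
Share of all counts, in percent on a log axis, of 14 RNA classes in each library of Baseline-WT (blue, n = 4) and DOCA-WT (red, n = 4), with the group mean as a bar. Mitochondrial rRNA was at 20.7% to 28.8% in Baseline-WT and at 2.42% to 5.84% in DOCA-WT, and most short RNA classes lay lower in every DOCA-WT library.

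A second fit over genes of every biotype gave 286 higher and 417 lower calls of 18756 tested (1.52% and 2.22%). At the adjusted p alone 1023 genes rose (5.45%) and 1074 fell (5.73%), and the groups did not overlap in 1764 genes that were higher (9.4%) and in 1670 that were lower (8.9%). The higher calls became 167, 184 and 169 without Baseline-WT 1, Baseline-WT 3 and DOCA-WT 3, and 187 without both male-pattern libraries. The lower calls were mostly short noncoding RNAs. Of 208 snoRNA genes tested, which guide the chemical modification of ribosomal RNA, 164 were lower and 0 higher, with a median log2 change of -3.80. Of 15 scaRNA genes, which guide the same modifications on spliceosomal RNA in Cajal bodies, 12 were lower (median -3.79). Of 31 snRNA genes 24 were lower (median -5.61), and of 25 rRNA genes 24 were lower (median -6.66). A gene was tested if above 1 CPM in at least 1 library, so genes low on DOCA-salt could enter through baseline libraries alone. *Scarna6*, for example, had a mean of 11.3 CPM in Baseline-WT and 0.141 CPM in DOCA-WT. These results cover 208 of 1507 snoRNA, 31 of 1385 snRNA and 25 of 354 rRNA genes, and the filter can favour those high at baseline. The same holds for low genes of the gene lists, in either direction. Of 55 misc_RNA genes 15 were lower and 1 higher. Of 48 unprocessed pseudogenes 7 were lower and 0 higher, and of 20 mitochondrial tRNA genes 9 were lower. The lncRNA, TEC and processed pseudogene classes changed much less. Of 1504 lncRNA genes 34 were higher and 26 lower, of 916 genes annotated TEC 12 were higher and 3 lower, and of 622 processed pseudogenes 6 were lower. Leaving out Baseline-WT 1, 2 or 3 or DOCA-WT 3 brought the higher lncRNA calls to 15 to 17. The higher TEC calls were 3 to 6 without Baseline-WT 2 or 3 or DOCA-WT 2 or 3 and 20 without DOCA-WT 1, and the lower ones were 11 without DOCA-WT 2 and 1 without Baseline-WT 2 or DOCA-WT 3.

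Printed first among the snoRNAs is *Snord17*, which the naming rule selected and which carries both boxes of its family. It lies on chr2:144265979-144266216 (GRCm38, minus strand). Capitals mark the C box (TGATGA, within the first 20 bases) and the D box (CTGA, within the last 20), at which the guide RNA folds and binds its proteins.
Snord17: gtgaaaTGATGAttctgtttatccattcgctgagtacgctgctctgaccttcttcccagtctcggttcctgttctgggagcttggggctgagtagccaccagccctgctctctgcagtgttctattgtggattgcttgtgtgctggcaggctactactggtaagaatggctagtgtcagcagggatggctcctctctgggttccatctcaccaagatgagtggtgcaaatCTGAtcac

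*Snord17* was at 48.3, 42.0, 58.0 and 55.3 CPM in Baseline-WT (CPM over all biotypes tested, a scale that differs from the protein-coding one) and at 0.756, 0.837, 0.697 and 1.27 CPM in DOCA-WT, a log2 change of -5.82 ± 0.43 (adjusted p = 5.45e-07). The fall was seen in both families of guide. Of 93 snoRNA genes with a C and a D box in these positions 78 were lower (median -4.53), and of 59 with ACA at 3 bases before the end, the mark of the H/ACA family, 54 were lower (median -3.66). Of the 55 with neither 32 were lower, and the 1 with both was not called. These motifs were searched on the transcript strand only.

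RNAs of the nuclear machinery that are not guides fell as well. *Rn7sk*, the RNA that holds the elongation factor P-TEFb inactive, was at 3885, 3625, 4030 and 5284 CPM and then at 120, 205, 169 and 207 CPM (-4.58 ± 0.31, adjusted p = 2.57e-07). *Rpph1*, the RNA of RNase P, which trims tRNA precursors, was at 4506, 4595, 4482 and 7829 CPM and then at 262, 464, 375 and 317 CPM (-3.92 ± 0.27). *Rmrp*, the related RNA of RNase MRP, was at 318 to 446 CPM and then at 22.97 to 31.1 CPM (-3.89 ± 0.30), with the same values in both entries of that name, a ribozyme and a lncRNA at the same locus. *Malat1*, a long and abundant nuclear RNA, was at 3724 to 3792 CPM and then at 2772 to 5166 CPM (0.07 ± 0.21, adjusted p = 0.867). *Meg3*, a maternally expressed lncRNA, was at 449, 601, 332 and 436 CPM and then at 650, 1151, 1138 and 1347 CPM (1.24 ± 0.23, adjusted p = 0.00314).

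**Figure D4:**
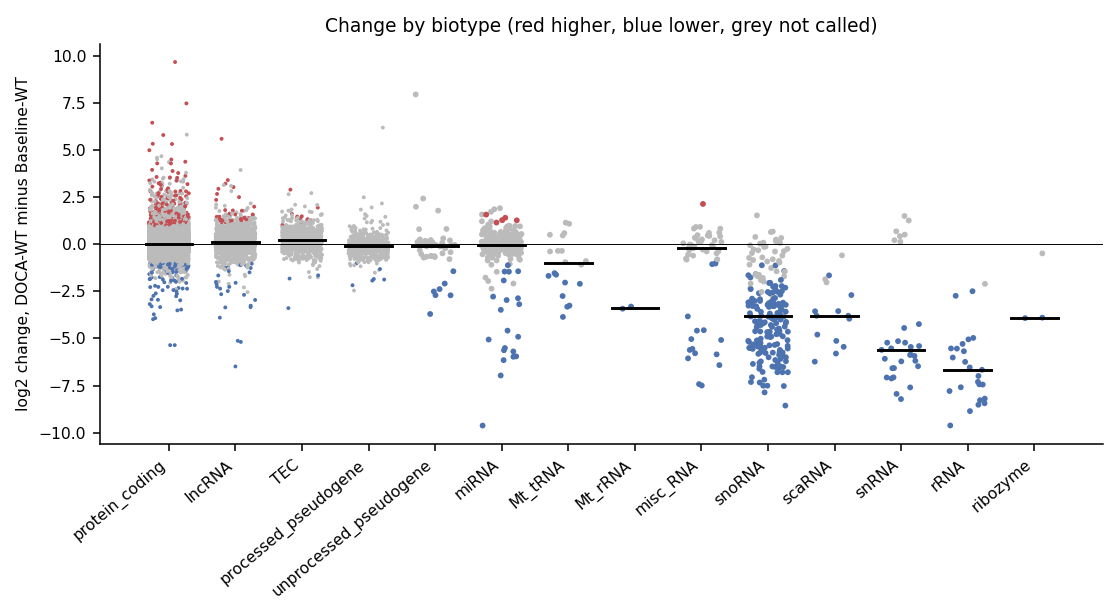
Log2 change (DOCA-WT minus Baseline-WT) of each gene tested in 14 biotypes, with genes called higher in red, lower in blue and not called in grey, and the median as a bar. The medians of snoRNA, scaRNA, snRNA and rRNA genes lay between -3.79 and -6.66, while those of protein-coding, lncRNA and TEC genes lay near 0.

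Of 258 genes annotated as miRNA 21 were lower and 5 higher (3 higher without Baseline-WT 1, Baseline-WT 3 or DOCA-WT 4). Of the 21 that were lower 15 overlapped another short noncoding gene, against 0 of the 5 that were higher and 4 of the 232 not called. Total RNA libraries count hairpins and their host RNAs rather than mature miRNAs, so these are levels of the locus. The scaRNAs *Gm26083* (chr11:117077243-117077435, GRCm38, plus strand) and *Scarna13* (chr12:105031075-105031349, minus strand) show the overlap, with the mature forms of miR-6516 and miR-3069 in capitals within them.
Gm26083: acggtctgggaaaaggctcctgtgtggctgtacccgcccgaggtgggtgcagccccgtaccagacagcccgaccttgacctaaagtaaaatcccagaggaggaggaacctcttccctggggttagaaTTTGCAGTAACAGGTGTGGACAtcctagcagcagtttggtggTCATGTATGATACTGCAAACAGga
Scarna13: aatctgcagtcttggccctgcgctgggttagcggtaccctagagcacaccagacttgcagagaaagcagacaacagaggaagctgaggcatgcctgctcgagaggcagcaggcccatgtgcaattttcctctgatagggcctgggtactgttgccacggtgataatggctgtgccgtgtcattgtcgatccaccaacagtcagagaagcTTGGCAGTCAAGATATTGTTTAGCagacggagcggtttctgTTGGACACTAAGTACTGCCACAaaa

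*Mir6516* was at 16.6, 13.0, 19.7 and 17.6 CPM in Baseline-WT and at 0.284, 0.258, 0.111 and 0.389 CPM in DOCA-WT (-5.97 ± 0.29). *Gm26083* around it was at 16.8, 13.2, 19.99 and 17.8 CPM and then at 0.284, 0.386, 0.111 and 0.415 CPM (-5.80 ± 0.29), nearly the same values. *Mir3069* and *Scarna13* had log2 changes of -5.06 and -5.44. Counts of these miRNA genes and of the scaRNAs that span them cannot be told apart.

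Of the 26 called miRNA genes 10 matched mature sequences of RefSeq (GRCm38.p6). The forms of the loci named here are printed with the seed (bases 2 to 8) in capitals, and no seed was shared between loci.
miR-6516-5p: uUUGCAGUaacagguguggaca
miR-3069-5p: uUGGCAGUcaagauauuguuuagc
miR-770-5p: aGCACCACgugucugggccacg
miR-1906: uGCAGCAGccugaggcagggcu
miR-5125: uCUGCCUGggauuuccuugu

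Of the loci that were higher, *Mir770* and *Mir1906-1* lie within *Meg3* on chromosome 12 and moved like it. *Mir770* was at 3.66, 4.43, 3.68 and 4.06 CPM and then at 5.70, 9.92, 10.3 and 12.5 CPM (1.28 ± 0.21), and *Mir1906-1* rose by 1.29 ± 0.23, beside 1.24 for *Meg3*. *Mir5125* lies within *Srrm2*, whose own log2 change was 0.17, and was at 0.545 to 1.25 CPM and then at 1.80 to 3.50 CPM (1.59 ± 0.28). Most counts in genes annotated as miRNA were assigned to 1 locus of 57 bases, *Gm23935* (chr16:11144125-11144181, plus strand). It took 4.75% of all counts at baseline and 2.54% on DOCA-salt. *Gm23935* was not among the loci matched to mature sequences. Which RNA its reads came from was not tested, so they cannot be taken as a miRNA level. Its annotated sequence equals that of *Gm24270* (chr9:56223715-56223771, minus strand) in 57 of 57 bases and that of *Gm24187* (chr13:9834469-9834525, minus strand) in 56 of 57, so reads can be split between them.
Gm23935: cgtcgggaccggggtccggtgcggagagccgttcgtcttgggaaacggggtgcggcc
Gm24187: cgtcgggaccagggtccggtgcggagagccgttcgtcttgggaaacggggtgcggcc

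Transcripts of the mitochondrial genome were lower in each class. The rRNAs *mt-Rnr2* and *mt-Rnr1* were the most counted genes at baseline. *mt-Rnr2* took 12.1% to 16.9% of counts in Baseline-WT and 1.47% to 3.55% in DOCA-WT (log2 change -3.30 ± 0.47, adjusted p = 0.000355), and *mt-Rnr1* fell by 3.42 on the log2 scale. Of 20 mitochondrial tRNA genes 9 were lower. Of 13 mitochondrially encoded mRNAs, which encode subunits of the respiratory chain and ATP synthase, 12 fell, with a median log2 change of -2.28. *mt-Cytb* was at 7390, 7583, 9486 and 11520 CPM and then at 2250, 2078, 2098 and 3419 CPM (-1.87 ± 0.31, adjusted p = 0.00216), and *mt-Nd1* was at 6081 to 9604 CPM and then at 966 to 2215 CPM (-2.53 ± 0.43). *mt-Co1* fell less (-1.21 ± 0.26). Several of these mRNAs have nuclear copies of high identity. The pseudogene *Gm10925* equals *mt-Atp6* over 678 bases at 100% identity, so the very low counts of *mt-Atp6* (5.54 to 13.6 CPM, then 0.251 to 1.26 CPM) are uncertain. The 82 tested nuclear genes of oxidative phosphorylation moved little, with 0 that rose, 5 that fell (2 without Baseline-WT 3, Baseline-WT 4 or DOCA-WT 3, and 3 without DOCA-WT 2) and a median of -0.12.

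Replication-dependent histone genes fell in 28 of 39 tested, and all 39 had a negative log2 change (median -1.49). Their mRNAs end in a stem-loop instead of a poly(A) tail and are made in large amounts when DNA is copied. *Hist1h4h*, on chromosome 13, is shown for this end. Its transcript holds the stem-loop with its core in capitals, and this core (CTTTTCAG) was found within the last 100 bases of 9 of the 39 tested histones (23.1%) and of 1.17% of all protein-coding genes tested.
Hist1h4h: caaaggccCTTTTCAGggccgcccac

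*Hist1h4h* was at 15.1, 18.003, 21.1 and 17.5 CPM in Baseline-WT and at 5.62, 5.34, 4.88 and 4.50 CPM in DOCA-WT (-1.82 ± 0.13, adjusted p = 1.09e-06), with little spread in either group. *Hist4h4* was at 4.61 to 7.34 CPM and then at 0.251 to 0.489 CPM (-4.0006 ± 0.29, adjusted p = 1.27e-06), and *Hist2h2bb* was at 21.0 to 43.4 CPM and then at 0.328 to 1.08 CPM (-5.38 ± 0.53). *Hist2h2bb* lies within the span of the lncRNA *Gm42743* on the same strand. In the fit of all biotypes their log2 changes were -5.35 and -5.13, with nearly equal levels. Counts of *Hist2h2bb* and *Gm42743* therefore cannot be told apart. Of the 9 with a match to the core 6 fell, and of the 30 without a match 22 fell. Only the exact core in annotated transcripts was searched. A histone mRNA without a match may therefore still end in the stem-loop, and this split cannot show whether the stem-loop matters. Of 10 histone variant genes whose mRNAs carry poly(A) tails, *H2afy* rose (0.51 ± 0.10) and 0 fell. Histone genes have many similar copies, between which reads can be split. By annotated length, the 67 shortest protein-coding genes tested had a median log2 change of -0.16, and 14 of the 15 among them that were called lower were histone or mitochondrial genes, while the medians of longer genes lay between -0.02 and 0.01.

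Among genes of protein synthesis, 29 of 79 cytosolic ribosomal protein genes fell and 0 rose, with a median log2 change of -0.36. *Rps20* was at 84.8, 82.7, 103.6 and 117 CPM and then at 54.3, 53.4, 57.1 and 66.7 CPM (-0.74 ± 0.15), and *Rplp1* fell by 0.61 on the log2 scale. This list turned with the scale, since with all-biotype totals 29 rose. The calls also rested on single libraries, with 13 to 16 that fell without Baseline-WT 3 or 4 or DOCA-WT 2 or 3. *Rps20* shares exons with a short noncoding gene, and without all genes that do so 17 ribosomal protein genes fell. Of 67 translation factors 11 fell and 1 rose, with *Eif4a1*, the RNA helicase that opens mRNA for ribosomes, at 162, 154, 195 and 199 CPM and then at 89.8, 88.6, 97.4 and 95.9 CPM (-0.93 ± 0.12, adjusted p = 0.000347). Without Baseline-WT 2, 3 or 4 or DOCA-WT 2, 3 or 4 it was 5 to 7 that fell. *Eif4a1* shares exons with 2 short noncoding genes, and without all genes of that kind 6 translation factors fell, so its values cannot be told apart from those of the short RNAs. Of 75 mitochondrial ribosomal protein genes 2 rose and 0 fell, and 0 rose without Baseline-WT 1, 2 or 3 or DOCA-WT 2 or 3. Of 37 proteasome genes 7 fell, or 2 to 3 without any 1 of Baseline-WT 2, 3 or 4 or DOCA-WT 1, 2 or 3.

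Some protein-coding genes that fell share exons with a short noncoding gene on the same strand. Of the 105 lower genes 6 did (5.71%), of the 218 higher genes 3 did (1.38%), and of all tested genes with an annotation 323 of 14843 did (2.18%). *Ccnb1ip1*, a ligase of the cell cycle and meiosis, was at 6029, 6165, 5930 and 10480 CPM and then at 341, 600, 483 and 426 CPM in the protein-coding fit (-3.95 ± 0.27). It overlaps *Rpph1* on chromosome 14, and both had a log2 change of -3.92 in the fit of all biotypes, with nearly equal levels there (4592 and 4595 CPM in Baseline-WT 2, for example). *Ncapd2*, a condensin subunit, was at 122.9, 119, 121 and 170 CPM and then at 15.4, 16.7, 17.7 and 17.9 CPM (-2.97 ± 0.16), the smallest p of all protein-coding genes that fell, and it overlaps *Scarna10*, which fell by 6.49. In the fit of all biotypes *Ncapd2* was at 91.8, 88.3, 91.4 and 127 CPM in Baseline-WT, and *Scarna10* at 81.4, 82.1, 84.7 and 118 CPM. In DOCA-WT *Ncapd2* was at 11.8 to 13.8 CPM and *Scarna10* at 0.567 to 1.77 CPM. *Scarna10* thus came close to the level of *Ncapd2* at baseline only. A change of *Ncapd2* outside *Scarna10* was not tested. *Rps3* (-1.36 ± 0.18) overlaps *Snord15b*, which fell by 5.40. Values of these protein-coding genes therefore cannot be told apart from those of the short RNAs within them. Without all such genes, 214 protein-coding genes were higher and 98 lower.

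Mice given the Cre virus went through the same pair of cohorts and share no library with this comparison. In them 170 protein-coding genes were higher and 66 lower on DOCA-salt, and 305 and 283 over all biotypes. Of their 3 DOCA-CRE libraries the third kept 19.1% of its counts in mitochondrial rRNA, against 4.80% and 3.32% in the others and 20.3% to 25.5% in Baseline-CRE, and without it the lower protein-coding calls became 177 and those over all biotypes 453. Short noncoding RNAs were lower there too, with 124 snoRNA, 11 scaRNA and 17 snRNA genes called lower. List members were counted at the adjusted p alone, unlike these calls. The share of all genes at that measure in the Cre-virus mice is not given. Their list counts therefore stand without a background. Serotonergic genes rose in 3 of 12, and *Tph2* had a log2 change of 3.46 there beside 5.32 in the control-virus mice, a difference that did not pass (adjusted p = 0.321) but did without the third DOCA-CRE library (0.00868). Replication-dependent histones fell in 24 of 39. Of 13 mitochondrially encoded mRNAs 0 fell there (median log2 change -0.49). Mitochondrial rRNA and tRNA genes had 0 lower calls each, or 2 and 6 without the third DOCA-CRE library, and 3 mitochondrial tRNA genes were higher. Of 19 Hox genes 0 rose there, with a median of -0.61. *Nr3c1* changed by -0.71 beside -0.75, and *Plin4* by 3.84 beside 3.37. *Th* had a change of -0.03 beside 2.57 (adjusted p of the difference 0.0554), *Trh* of 1.07 beside 9.67 (0.0918) and *Gfap* of 0.76 beside 2.09 (0.342), and without the third DOCA-CRE library these p-values were 0.042, 0.0387 and 0.443. By the test of the difference, the log2 change was more positive in the control-virus than in the Cre-virus mice in 71 protein-coding genes. It was more negative in 5. Without the third DOCA-CRE library these counts were 278 and 66. Among the 71 were *Celf6* (difference 1.80, adjusted p = 0.0196), *Dlk1* (1.92, adjusted p = 0.0196) and *Scn3b* (2.05, adjusted p = 0.0348).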

How the data were processed

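Total RNA of RVLM punches was made into stranded low-input libraries and sequenced. The authors aligned the reads with STAR within the MAPR-Seq workflow to GRCm38.p6 with Gencode annotation and checked them with FastQC and RSeQC. The program that counted reads is not given in the sources used here. The deposited table holds raw counts of 55421 genes, with 117 repeated symbols and no row without a gene name, in 15 libraries, and 0 of its count columns lacked a sample. The other deposited tables hold genes selected by the authors' own edgeR comparisons, with fold changes, FDR values and RPKM, and were not used. Groups, replicate numbers and genotypes follow the labels. No label ties the replicates to separate animals or pools, so p-values measure the spread between these libraries, and no pair of libraries agreed within sampling noise (lowest chi-square per degree of freedom 11.4).

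Counts were tested with edgeR 4.0.16 in R 4.3.3 (quasi-likelihood, TMM factors, 1 term per group, all 15 libraries), on protein-coding genes above 1 CPM in at least 1 library and, separately, on genes of all biotypes. P-values were adjusted by the Benjamini-Hochberg method over all genes tested. A gene was called at an adjusted p up to 0.05 with a 2-fold change or more. Members of gene lists were counted at the adjusted p alone, and SE is that of the log2 change. Shares of counts were compared by an exact two-sided permutation test. The edgeR script was tested on simulated counts. Coordinates and gene sequences were read from Gencode vM21 on GRCm38 and mature miRNAs from RefSeq on GRCm38.p6.

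The samples compared and the 49 gene lists were chosen with earlier results of these data known. Genes named were taken from the 12 largest fold changes and 6 smallest p-values in each direction among called protein-coding genes with separate groups, up to 4 genes a list with the smallest p, 3 genes a biotype and direction where at least 10 were tested, the 10 most counted genes of each group, the floxed gene, and genes named in the study's text. Not every gene so taken is described, and some are not reported here. *Slc6a2*, *Chat*, *Slc17a6*, the genes that show an overlap or an identical copy, and the host gene *Srrm2* were named after their values were seen. Alternatives were DESeq2 1.42.0, limma 3.58.1 (voom with quality weights), the edgeR likelihood ratio test, other scalings and filters, the 8 libraries alone, a sex term, a replicate block and leaving out each library. After the data had been seen, 3 more were added, which were leaving out both male-pattern libraries, scaling by all-biotype totals, and removing genes that share exons with short noncoding genes. Sequencing depth per library stands in the report.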

Additional observations from a re-analysis of the deposited data

Results flagged for a closer look

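In 25 of 244 groups of 4 libraries tested (10.2%), 1 library stood apart from the other 3 by Dixon's criterion, which chance meets in about 1 of 20. Of these 25, Baseline-WT 4 was the library in 10, DOCA-WT 4 in 6, DOCA-WT 3 in 5, Baseline-WT 2 in 3 and DOCA-WT 2 in 1. The rate by chance holds for independent values with a normal spread. Some groups share reads, such as *Ccnb1ip1*, *Rpph1* and the ribozyme share, or the mitochondrial mRNA share and its genes. Others lie near 0 CPM, such as *Pnmt* and *Hoxc6*. The observed share therefore cannot be set closely against that rate.

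Baseline-WT 4 was the highest of its group in *Ccnb1ip1* (10480 CPM), *Ncapd2* (170 CPM), *Rpph1* (7829 CPM) and the ribozyme share (0.666% of counts). It was also the highest in *Sst* (71.0 CPM), *Slc17a6* (157 CPM), *Hbb-bs* (45.5 CPM) and *Hoxc6* (0.162 CPM), and the lowest in *Chat* (103.6 CPM) and *Gm23935* (40755 CPM). Baseline-WT 2 was the highest in *Pnmt* (0.244 CPM), *Hoxd3* (12.1 CPM) and *H2afy* (46.3 CPM).

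DOCA-WT 3 was the highest of its group in *Htr5b* (55.3 CPM), *Ano2* (44.2 CPM), *Hmx3* (4.63 CPM), *Scn3b* (68.3 CPM) and *Hoxc6* (1.65 CPM). DOCA-WT 4 was the highest in the mitochondrial mRNA share (1.99% of counts) and in *mt-Cytb* (3419 CPM), *mt-Nd1* (2215 CPM) and *mt-Co1* (6990 CPM), as well as in *P2ry12* (10.7 CPM) and *Hbb-bs* (8.20 CPM). DOCA-WT 2 had the lowest share of rRNA genes (0.0038% of counts).

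The log2 change on DOCA-salt was more positive in control-virus than in Cre-virus mice, by edgeR's test of the difference, in 8 of the named genes. Over all 14852 protein-coding genes tested it was more positive in 71 and more negative in 5. Many named genes were chosen by their change in control-virus mice, which is 1 side of this difference. That choice favours a positive difference. The difference was 1.80 for *Celf6*, 1.30 for *Celf4*, 1.92 for *Dlk1*, 0.83 for *Grb10*, 1.07 for *Vamp2*, 1.89 for *Htr1a*, 2.05 for *Scn3b* and 2.52 for *Cbln1*, and all 8 also passed without the third DOCA-CRE library (adjusted p from 0.00231 to 0.0168).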

How the results depend on the processing

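Of 104 named genes under every alternative, 58 kept their direction and their side of the threshold throughout, and of 2549 values 2364 did so, 157 lost the call, 15 gained it, 5 reversed with a call and 8 changed sign without one (*Slc6a2*, *Zic1*, *Malat1* and *Nfkb1*). The 5 reversals with a call came from all-biotype totals as the scale, under which the log2 change was 0.13 for *Scn1a*, 0.16 for *Lnpep*, 0.029 for *Vtn*, 0.22 for *Mbnl1* and 0.47 for *Nfkb1*. That scale also gave 1807 higher and 42 lower protein-coding genes against 218 and 105, with a median of 0.58 over all genes, and *Nr3c1*, *Nr3c2*, *Tacr1*, *Olig1*, *P2ry12*, *Acta2*, *Rps20* and *Rplp1* no longer passed. Protein-coding calls were 267 higher and 112 lower with DESeq2, 304 and 122 with the likelihood ratio test, 318 and 237 with limma voom, 308 and 72 without factors, and 814 and 909 at the adjusted p alone. They were 121 and 59 without both male-pattern libraries. Leaving out 1 library gave 116 to 280 higher and 67 to 164 lower. Over all biotypes the higher calls (286) were 2507 without factors, 520 without a filter, 1023 at the adjusted p alone, 187 without both male-pattern libraries and 167 to 368 with 1 library left out. The lower calls (417) were 1074 at the adjusted p alone and 158 without mitochondrial rRNA and short noncoding genes, since those genes were then not tested. With mitochondrial rRNA left out of the total, the lncRNA share fell by 1.43 percentage points (exact p = 0.0286) against 0.53 with it, and the ribosomal protein share had a difference of -0.084 against 0.097, without passing in either. Without the third DOCA-CRE library, lower calls in the Cre-virus mice were 177 against 66 (protein-coding) and 453 against 283 (all biotypes). Genes whose log2 change was more positive or more negative in the control-virus mice were then 278 and 66 against 71 and 5 (protein-coding). Over all biotypes they were 253 and 42 against 64 and 0. Except where a sentence says otherwise, the cause of these changes was not tested. Genes near 1 CPM, such as *Agtr1a*, *Pnmt* and *Hoxc6*, rest on few counts per library.

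Replicate numbers mark no stated litter or batch. Same-numbered libraries of both groups correlated at 0.158, 0.084, 0.053 and 0.154 (mean 0.112, against -0.036 for other pairs). These values do not settle whether the numbers pair the samples. The main fit had no replicate term, since no label states a pairing. A replicate block gave 197 higher and 103 lower protein-coding genes, and 269 and 403 over all biotypes. Under the block *Hoxb2*, *Hoxb3*, *Hoxd3*, *Htr1d*, *Hif3a*, *Pnmt* and *Olig1* no longer passed, and 1 Hox gene rose.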
